A study of Homo sapiens with 12 samples.

Results

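The kinetochore, cohesin and condensin subunits are a module of 44 genes whose products hold, compact and pull apart chromosomes at division. The members were taken by exact gene symbol from the deposited table of each cell line. Of the 44, 43 are listed in both tables, out of 11554 genes for SW48 and 11070 for 23132/87. CENPP, a subunit of the inner kinetochore, is listed in neither, and no value is given for it. The listed members comprise 13 inner kinetochore genes, 10 outer kinetochore genes, 4 genes of the fibrous corona, 3 genes that guard or cut sister chromatid cohesion, 8 condensin genes and 5 cohesin genes.

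Transcripts were measured by stranded mRNA sequencing in SW48, an established colorectal adenocarcinoma line, and 23132/87, an established gastric adenocarcinoma line, both labelled wild type. Cells of each line were exposed for 48 h to 10 µM myricone C, a plant neolignan per the series title, or to vehicle, 0.1% DMSO, with 3 biological replicate libraries in each of the 4 groups. The labels call the replicates biological but do not say whether they came from separate cultures, so the tests measure the spread between these libraries. The compound had 1 dose and 1 time, and each tissue is represented by 1 line.

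Kinetochores are the protein assemblies that join a centromere to spindle microtubules. The inner layer sits on nucleosomes that contain CENPA, the outer layer binds microtubule ends, and a transient corona carries motors and checkpoint proteins before attachment. Cohesin is a ring that holds sister chromatids together from replication until separase opens it, and it also shapes chromatin loops in interphase. Condensin is a related ring complex that compacts chromosomes for mitosis. Transcripts of many of these genes are known to peak around G2 and mitosis in dividing cells, whereas several cohesin subunits are made throughout the cycle.

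Values are the authors' deposited expression signal per gene, whose unit is not stated but whose range is that of FPKM or TPM, units set relative to the library and to the length of the gene. Read depth is unknown. No listed value lies below 1, and column totals ran from 464037 to 536594. In SW48 the totals were 499162, 477551 and 499845 with myricone C, against 523822, 509551 and 536594 with vehicle. In 23132/87 they were 464037, 502899 and 506021 with myricone C, against 525838, 518943 and 519738 with vehicle. Treated totals lay under all vehicle totals in each line, and their part in the members' changes was not tested. SW48 myricone C replicate 1 stood apart, with 5.28% of its total in 7SL and other small RNA genes, where the remaining SW48 libraries had 0.0733% to 0.22%. Mitochondrial pseudogenes held 15.3%, 14.4% and 13.5% of the SW48 totals with myricone C, against 16.6%, 16.7% and 18.1% with vehicle. In 23132/87 the shares overlapped, at 14.4%, 14.3% and 13.5% with myricone C, against 13.4%, 13.7% and 15.6% with vehicle. The part of these shares in the members' changes was not tested. The first principal component, which held 68.7% of the variance in SW48 and 77.3% in 23132/87, separated myricone C from vehicle libraries in both lines. All 4 epithelial markers (EPCAM, KRT8, KRT18 and CDH1) are listed in both lines. Of 5 intestinal markers, 2 are listed in SW48 (CDX2 and CDH17), and of 5 gastric markers only TFF1 is listed in 23132/87, beside 4 of the 5 intestinal markers. Leukocyte, endothelial and meiotic cohesin markers are listed in neither table, and of 4 mesenchymal markers only COL1A1 is listed, in 23132/87.

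Markers of the lines themselves changed with myricone C. By limma on the log2(value + 1) scale, 3 of 4 epithelial markers rose in SW48, where KRT8 was at 1.19 ± 0.26 (SE), KRT18 at 1.57 ± 0.29 and CDH1 at 0.61 ± 0.19, and EPCAM was not called at -0.27 ± 0.12. Treated and vehicle libraries of CDH1 overlapped in SW48, and 10.1% of all genes rose there. In 23132/87, 3 of the 4 epithelial markers fell, with KRT8 at -1.48 ± 0.19, KRT18 at -1.60 ± 0.17 and EPCAM at -0.41 ± 0.09, while CDH1 rose at 0.56 ± 0.10. Of all genes in that line, 23.2% fell and 23.3% rose. CDX2 fell in SW48 at -1.47 ± 0.18. In 23132/87 VIL1 fell at -1.54 ± 0.18, TFF1 fell at -0.85 ± 0.17 and LGALS4 rose at 1.44 ± 0.33. The part of these shifts in the members' changes was not tested.

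Most members fell with myricone C in both lines. The members were chosen with earlier results of these data known, so the counts below are descriptions and not an independent test. A gene is called, as fallen or risen, when the adjusted p (Benjamini-Hochberg over all genes of the table) of limma's moderated test on log2(value + 1) is under 0.05. In SW48, 36 of the 43 listed members fell, none rose and 7 were not called, where 19.2% of all 11554 genes fell and 10.1% rose. In 23132/87, 35 fell, 1 rose (STAG2) and 7 were not called, where 23.2% of all 11070 genes fell and 23.3% rose, 46.5% in all. In SW48, 29.3% of all genes were called in either direction. Of these SW48 calls, 2213 of 3383 were lower, a share that moved to 1634 of 3231 when libraries were scaled to a common median, under which 33 members fell and none rose. The median log2 change of the listed members was -0.76 in SW48 and -0.68 in 23132/87, beside -0.08 and 0.01 over all genes. Lower signal in RNA from whole cultures may come from fewer cells in the phase that makes a transcript or from less of it in each cell, and these cannot be told apart here. Without SW48 myricone C replicate 1, the library with the raised small RNA share, 35 members fell in SW48, and the group medians there were -0.80 for the inner kinetochore, -0.92 for the outer kinetochore, -1.02 for condensin and -0.22 for cohesin. The part of small RNA reads in any change was not tested.

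The same 33 genes fell in both lines, where 12% of the 10264 genes in both tables fell in both. CENPC, CENPH and NSL1 were called in SW48 alone, CENPL and CENPT in 23132/87 alone, and MIS12, ZW10, SMC3 and STAG1 in neither. A call in 1 line only does not show that the lines differ, and none of these 9 genes passed the test of the difference given further on. In SW48, every myricone C library lay below every vehicle library for 38 members (28.4% of all genes), and in 23132/87 for 36 (27.9% of all genes). Changes of at least 1 on the log2 scale downward were found for 11 members in SW48 and 13 in 23132/87, beside 2.41% and 4.11% of all genes. Mean vehicle signals of the members spanned 4.39 (CENPQ) to 90.0 (RAD21) in SW48 and 3.65 (CENPC) to 239 (RAD21) in 23132/87.

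**Figure D1:**
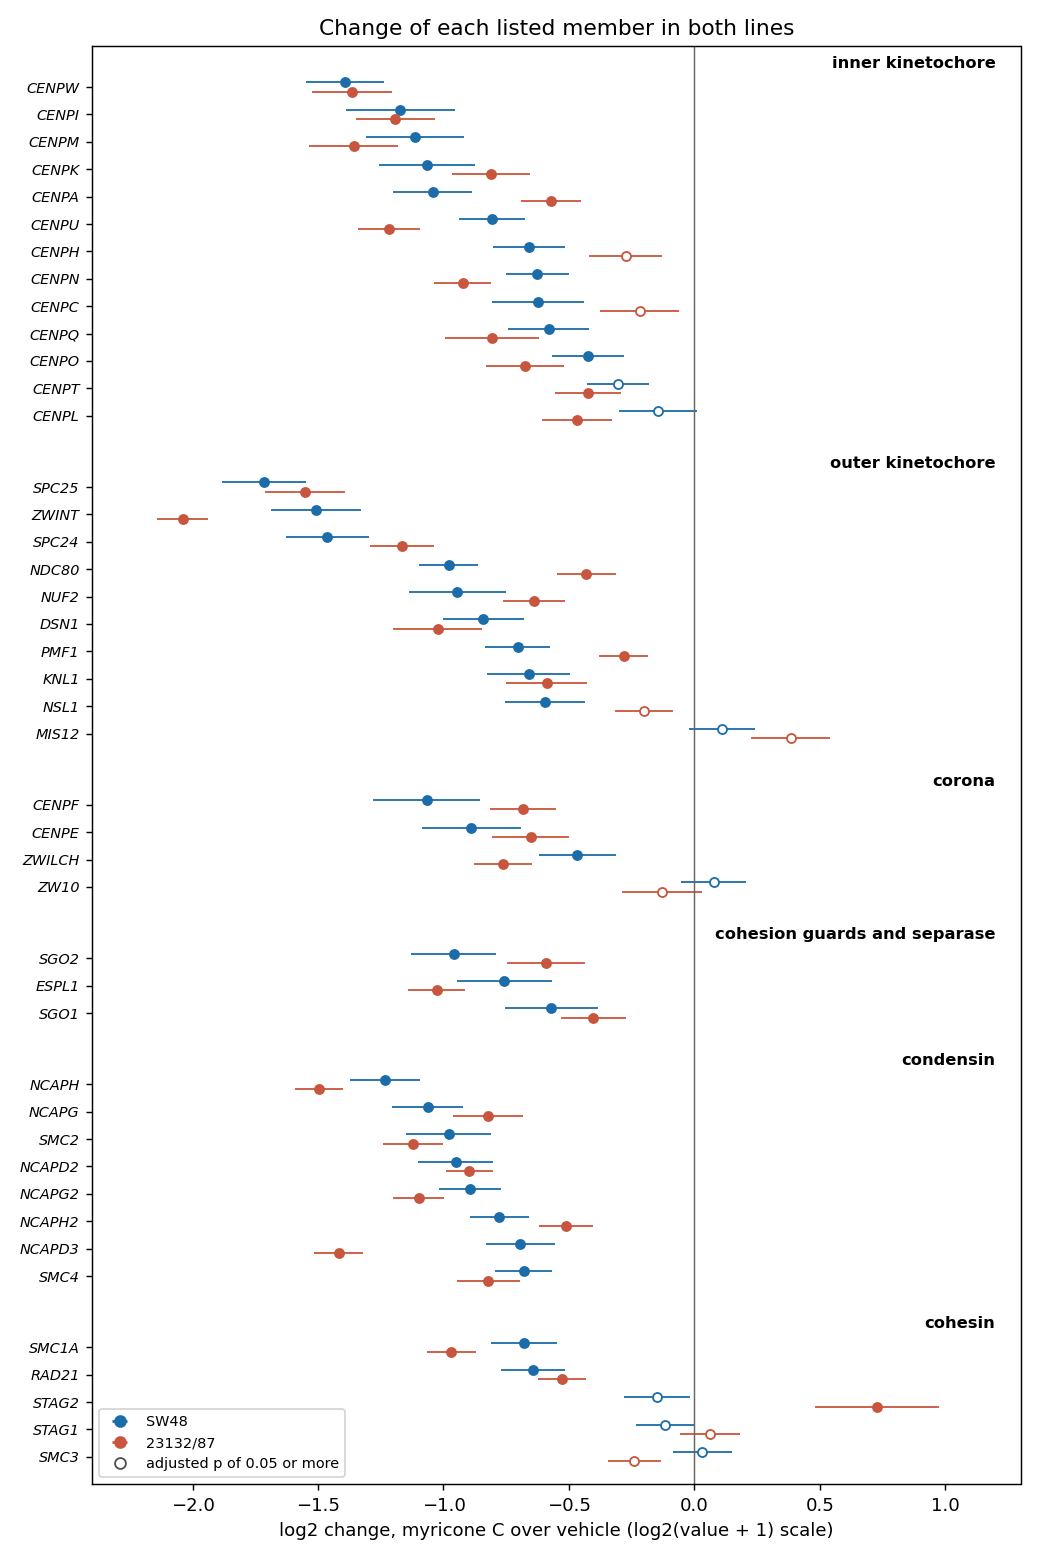
Log2 change of each of the 43 listed members, myricone C over vehicle, on the log2(value + 1) scale (x axis), with limma's standard error as bars (n = 3 libraries a group); SW48 in blue above 23132/87 in red, open circles where the adjusted p is 0.05 or more. All 8 condensin genes lie left of 0 in both lines, while SMC3, STAG1, STAG2, MIS12 and ZW10 lie near or right of 0 in at least 1 line.

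Promoters of the members were read from RefSeq (GRCh38.p14, 250 bases before to 50 after each gene's start), where 38 of the 44 members had an entry. Examples of members that fell in both lines are shown here beside STAG1, called in neither line. The printed windows do not stand for all members of either kind. Several mitotic genes are known to carry a cell cycle genes homology region (CHR, searched as TTTGAA or TTCGAA) near their start, often with CCAAT boxes (CCAAT) and at times an E2F element (searched as GCGGGAA). Both strands were searched. Capitals mark these matches, and within the printed sequences no match overlapped another. The windows are chr2:26785806-26786105 on the plus strand for CENPA, chr10:56361210-56361509 on the minus strand for ZWINT, chr2:168890381-168890680 on the minus strand for SPC25, chr18:2571307-2571606 on the plus strand for NDC80, chrX:53422679-53422978 on the minus strand for SMC1A and chr3:136752329-136752628 on the minus strand for STAG1. Sequences run along the strand of the gene, and RefSeq's starts can differ from those of the GENCODE 29 gene spans given further on.
CENPA: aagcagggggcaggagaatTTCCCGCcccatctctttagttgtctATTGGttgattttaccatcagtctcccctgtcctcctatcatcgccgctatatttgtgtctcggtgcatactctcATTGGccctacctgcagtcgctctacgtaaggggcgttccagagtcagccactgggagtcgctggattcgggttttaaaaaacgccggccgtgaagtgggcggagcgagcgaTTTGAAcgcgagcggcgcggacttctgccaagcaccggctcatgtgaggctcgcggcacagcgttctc
ZWINT: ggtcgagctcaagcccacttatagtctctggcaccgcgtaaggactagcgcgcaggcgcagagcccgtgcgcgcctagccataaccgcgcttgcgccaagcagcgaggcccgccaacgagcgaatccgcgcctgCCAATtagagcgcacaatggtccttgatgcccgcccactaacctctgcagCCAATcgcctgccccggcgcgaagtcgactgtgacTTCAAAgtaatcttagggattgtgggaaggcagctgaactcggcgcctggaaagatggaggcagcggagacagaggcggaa
SPC25: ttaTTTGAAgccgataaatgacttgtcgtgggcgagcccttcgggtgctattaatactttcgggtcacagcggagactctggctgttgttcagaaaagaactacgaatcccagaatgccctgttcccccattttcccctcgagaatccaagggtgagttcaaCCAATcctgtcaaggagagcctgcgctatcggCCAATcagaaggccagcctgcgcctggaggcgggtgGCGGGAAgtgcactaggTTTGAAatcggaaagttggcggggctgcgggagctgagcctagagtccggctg
NDC80: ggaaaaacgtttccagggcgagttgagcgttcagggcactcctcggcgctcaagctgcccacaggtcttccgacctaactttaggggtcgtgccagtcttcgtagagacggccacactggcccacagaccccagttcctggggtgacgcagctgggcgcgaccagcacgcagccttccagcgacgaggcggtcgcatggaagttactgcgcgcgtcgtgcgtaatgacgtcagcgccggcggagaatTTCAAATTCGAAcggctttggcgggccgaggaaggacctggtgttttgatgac
SMC1A: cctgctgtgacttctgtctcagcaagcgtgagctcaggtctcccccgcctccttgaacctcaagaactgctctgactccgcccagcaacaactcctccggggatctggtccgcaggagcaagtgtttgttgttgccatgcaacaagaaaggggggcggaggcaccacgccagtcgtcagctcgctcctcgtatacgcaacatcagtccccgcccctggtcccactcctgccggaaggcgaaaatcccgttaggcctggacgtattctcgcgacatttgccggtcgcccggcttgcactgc
STAG1: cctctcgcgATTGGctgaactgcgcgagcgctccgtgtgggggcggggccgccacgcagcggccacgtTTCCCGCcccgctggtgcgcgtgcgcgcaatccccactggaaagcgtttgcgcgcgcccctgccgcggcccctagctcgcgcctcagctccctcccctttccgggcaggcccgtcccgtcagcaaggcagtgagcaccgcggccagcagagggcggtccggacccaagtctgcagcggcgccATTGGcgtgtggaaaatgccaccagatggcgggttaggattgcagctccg
In these windows, counted with the first base of the gene as 1 and the base before it as -1, the CHR letters start at -18 in CENPA, at -31 in ZWINT, at -247 and -3 in SPC25, and at -3 and 4 in NDC80. The SMC1A window holds none of the 3 motifs, and STAG1 holds a CCAAT box at -241 and at 1 and the E2F letters at -182. CHR letters were found in 19 of the 38 members (50%), against 10.7% of 8252 promoters of genes in both tables and 16.35% of all 35116 promoters. A start within 50 bases of the gene start, a window chosen after the positions were seen, was found for 14 of 38 members (36.84%) and 3.19% of the promoters of genes in both tables. CCAAT boxes occurred in 22 of 38 members (57.89%, against 37.41%) and the E2F letters in 7 of 38 (18.42%, against 11.03%). Among condensin genes 5 of 7 held the CHR letters, and among cohesin genes 1 of 4, SMC3 at -151. Of the 29 members with an entry that fell in both lines, 16 (55.17%) held the CHR letters, and of the other 8 listed members with an entry, 3 (37.5%) did. Among the members called in neither line, ZW10 and SMC3 held the CHR letters, at -224 and -151, and MIS12 and STAG1 did not. CENPP, which has an entry but no expression value, held none of the 3 motifs. A match is a run of letters and not a measured site, and these shares were not tested.

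Inner kinetochore genes fell in 11 of 13 listed cases in each line, with a median log2 change of -0.66 in SW48 and -0.81 in 23132/87. With a pseudocount of 5 in place of 1, which shrinks changes of low genes, the 23132/87 median was -0.47. Adjusted p-values of the calls ran from 0.000210 to 0.0450 in SW48 and from 5.73e-05 to 0.0235 in 23132/87 (limma). Values below are in order of replicate number. CENPA, the histone H3 variant that marks the centromere (chromosome 2, 26764289 to 26801067, GRCh38, GENCODE 29), was at 8.27, 8.07 and 7.26 with myricone C, against 16.3, 21.7 and 14.5 with vehicle in SW48. The 23132/87 values of CENPA were 14.0, 11.1 and 12.0 with myricone C, against 20.3, 17.2 and 19.0 with vehicle. No myricone C library of CENPA reached the lowest vehicle library in either line. CENPA fell to 45.0% of its vehicle mean in SW48, with a change of -1.04 ± 0.16 on the log2 scale (SE, adjusted p = 0.000820), and to 65.7% in 23132/87, a change of -0.57 ± 0.12 (adjusted p = 0.00357). CENPC, which binds CENPA nucleosomes and reaches outward to the MIS12 complex, was at 4.28, 2.32 and 3.04 with myricone C, against 4.94, 6.21 and 5.02 with vehicle in SW48. CENPC in 23132/87 was at 2.84, 2.87 and 3.11 with myricone C, against 3.05, 3.12 and 4.77 with vehicle, so that the groups overlapped in that line and were apart in SW48. The change was -0.62 ± 0.18 (adjusted p = 0.0256) in SW48 and -0.22 ± 0.16 (adjusted p = 0.283, 95% interval -0.57 to 0.14) in 23132/87. The SW48 call of CENPC was lost without myricone C replicate 2 (-0.46), myricone C replicate 3 (-0.61), vehicle replicate 2 (-0.53) or vehicle replicate 3 (-0.66).

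CENPW and CENPT pair through histone folds, and CENPT recruits the NDC80 complex. CENPW fell in both lines. CENPW was at 9.52, 9.91 and 6.76 with myricone C, against 21.5, 26.0 and 25.5 with vehicle in SW48. CENPW stood at 6.48, 10.2 and 10.3 with myricone C, against 24.9, 24.6 and 23.4 with vehicle in 23132/87. The groups of CENPW did not overlap in either line, and the mean fell to 35.9% of vehicle in SW48 and 37.0% in 23132/87. Its log2 change was -1.39 ± 0.16 (SE, adjusted p = 0.000210) in SW48 and -1.37 ± 0.16 (adjusted p = 0.000122) in 23132/87. CENPT was at 16.2, 14.4 and 17.6 with myricone C, against 19.7, 21.2 and 19.1 with vehicle in SW48. CENPT in 23132/87 was at 9.28, 11.3 and 12.2 with myricone C, against 15.7, 15.9 and 13.3 with vehicle. Its groups were apart in both lines, yet only 23132/87 was called, at -0.42 ± 0.13 (adjusted p = 0.0235), against -0.30 ± 0.12 (adjusted p = 0.0877, 95% interval -0.58 to -0.03) in SW48. That call was lost without myricone C replicate 1 (-0.32), vehicle replicate 1 (-0.39) or vehicle replicate 2 (-0.38).

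CENPH, CENPI, CENPK and CENPM form a subcomplex that bridges the centromeric nucleosome and the outer kinetochore. CENPI was at 3.90, 2.04 and 1.97 with myricone C, against 6.04, 9.01 and 6.18 with vehicle in SW48. CENPI values in 23132/87 were 2.88, 3.47 and 2.16 with myricone C, against 6.90, 7.49 and 8.76 with vehicle. Both sets of 3 treated libraries lay under their vehicle libraries, and CENPI was at -1.17 ± 0.22 (SE) in SW48 and -1.19 ± 0.16 in 23132/87. At this low signal the size of the CENPI estimate varied with the processing. Across the alternatives it ran from -1.44 to -0.66 in SW48 and from -1.43 to -0.70 in 23132/87, and the calls held. CENPM was at 11.5, 6.29 and 9.67 with myricone C, against 23.4, 17.2 and 21.3 with vehicle in SW48. CENPM values in 23132/87 were 6.09, 6.82 and 8.91 with myricone C, against 24.3, 21.0 and 15.7 with vehicle, again without overlap. CENPM changed by -1.12 ± 0.19 in SW48 and -1.36 ± 0.18 in 23132/87. CENPK was at 5.88, 7.19 and 4.09 with myricone C, against 10.8, 12.4 and 15.6 with vehicle in SW48. CENPK values in 23132/87 were 7.71, 7.49 and 5.41 with myricone C, against 14.5, 11.0 and 12.7 with vehicle, apart in both lines, with changes of -1.07 ± 0.19 in SW48 and -0.81 ± 0.15 in 23132/87. CENPH was at 7.86, 7.01 and 9.64 with myricone C, against 13.0, 12.8 and 14.4 with vehicle in SW48, where its groups were apart. CENPH values in 23132/87 were 14.6, 14.8 and 12.1 with myricone C, against 14.1, 16.6 and 20.5 with vehicle, where 2 of the 3 myricone C libraries lay above the lowest vehicle library. CENPH changed by -0.66 ± 0.14 in SW48 (adjusted p = 0.00565) and was at -0.27 ± 0.15 in 23132/87 (adjusted p = 0.149, 95% interval -0.60 to 0.05).

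CENPL and CENPN form a pair in which CENPN contacts the CENPA nucleosome. CENPN was at 11.7, 13.8 and 13.8 with myricone C, against 21.0, 19.5 and 21.8 with vehicle in SW48. CENPN values in 23132/87 were 10.6, 9.27 and 11.2 with myricone C, against 20.7, 19.1 and 21.9 with vehicle, with no overlap in either line. Its change was -0.63 ± 0.12 (SE) in SW48 and -0.92 ± 0.11 in 23132/87. CENPL was at 6.10, 4.27 and 4.97 with myricone C, against 5.06, 5.89 and 6.26 with vehicle in SW48, with the groups overlapping. CENPL values in 23132/87 were 10.5, 8.54 and 7.43 with myricone C, against 11.6, 12.1 and 13.9 with vehicle, with the groups apart. It was called in 23132/87 at -0.47 ± 0.14 (adjusted p = 0.0209) and not in SW48 at -0.15 ± 0.16 (adjusted p = 0.512, 95% interval -0.49 to 0.20). The 23132/87 call was lost without myricone C replicate 2 (-0.45), myricone C replicate 3 (-0.36), vehicle replicate 2 (-0.49) or vehicle replicate 3 (-0.40).

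CENPO, CENPQ and CENPU belong to a further inner kinetochore complex, and CENPU is a docking site for the kinase PLK1. CENPU was at 13.5, 11.3 and 13.5 with myricone C, against 21.6, 21.8 and 25.7 with vehicle in SW48. CENPU values in 23132/87 were 11.0, 10.2 and 8.85 with myricone C, against 22.1, 24.2 and 27.6 with vehicle, with the treated libraries at less than the lowest vehicle library in each line. CENPU changed by -0.81 ± 0.13 (SE) in SW48 and -1.22 ± 0.12 in 23132/87. CENPQ was at 3.10, 2.52 and 2.20 with myricone C, against 3.59, 4.73 and 4.85 with vehicle in SW48. CENPQ values in 23132/87 were 3.82, 2.87 and 2.89 with myricone C, against 7.01, 4.49 and 7.86 with vehicle, apart in both lines at a low signal. It changed by -0.58 ± 0.16 in SW48, and by -0.81 ± 0.19 in 23132/87. The SW48 call of CENPQ did not hold without myricone C replicate 2 (-0.57), myricone C replicate 3 (-0.50), vehicle replicate 2 (-0.53) or vehicle replicate 3 (-0.52). CENPO was at 7.79, 6.10 and 6.64 with myricone C, against 10.7, 8.93 and 8.89 with vehicle in SW48. CENPO values in 23132/87 were 6.95, 6.56 and 4.43 with myricone C, against 9.99, 9.44 and 10.6 with vehicle, apart in both lines. It changed by -0.42 ± 0.14 in SW48 (adjusted p = 0.0450) and -0.68 ± 0.16 in 23132/87 (adjusted p = 0.00608). The SW48 call of CENPO was lost without myricone C replicate 2 (-0.35), myricone C replicate 3 (-0.41), vehicle replicate 1 (-0.34), vehicle replicate 2 (-0.46) or vehicle replicate 3 (-0.46), and after quantile normalization (-0.37), after median-centred scaling (-0.34) or with a replicate block (-0.42). Exons of ADCY3 on the opposite strand cover 26.97% of the exonic bases of CENPO, and the strand setting of the counting is not given in the sources used here. Such overlaps are not limited to the genes named for them, since 21 of the 43 listed members share exonic bases with another gene. They include SMC4 (18.46% with TRIM59), SGO1 (17.74% with SGO1-AS1) and CENPN (12.81% with CMC2). For 3 members the other gene lies on the same strand, namely CENPA (6.96% with SLC35F6), RAD21 (1.18% with MIR3610) and PMF1, described below.

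**Figure D2:**
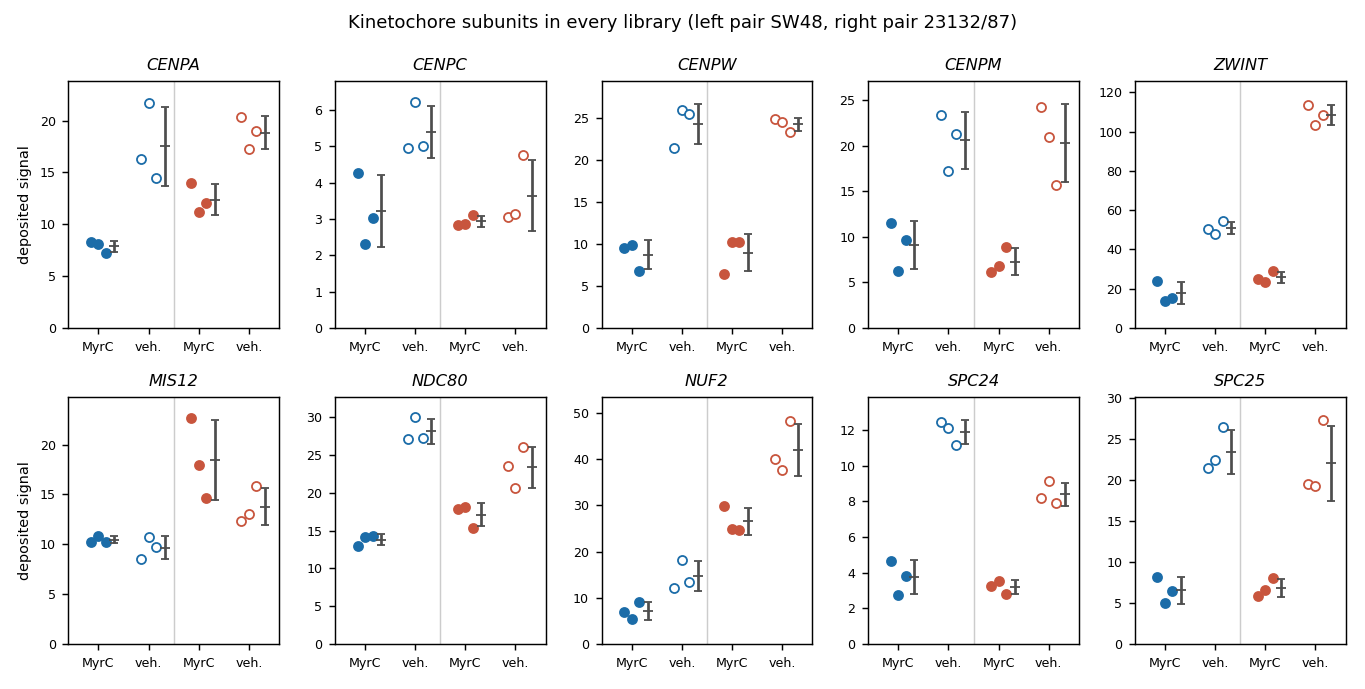
Deposited signal (y axes, from 0) of 10 kinetochore genes in each of the 12 libraries; filled circles are myricone C, open circles vehicle, SW48 in blue at left and 23132/87 in red at right, with group mean and SD beside them (n = 3). ZWINT, SPC24, SPC25 and CENPW show wide gaps between the groups in both lines, while MIS12 overlaps in both.

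Outer kinetochore genes fell in 9 of 10 cases in SW48 and 8 of 10 in 23132/87, with medians of -0.89 and -0.61 on the log2 scale. Adjusted p-values of the calls ran from 0.000109 to 0.0169 in SW48 and from 1.82e-06 to 0.0392 in 23132/87 (limma). The NDC80 complex, the rod that grips microtubule ends, is a tetramer of NDC80 with NUF2 at the microtubule end and SPC24 with SPC25 at the chromosome end. Genes of all 4 subunits fell in both lines, with larger estimates at the chromosome end than at the microtubule end, a difference between genes that was not tested. SPC25 was at 8.19, 4.96 and 6.44 with myricone C, against 21.5, 22.4 and 26.5 with vehicle in SW48. SPC25 values in 23132/87 were 5.83, 6.57 and 8.01 with myricone C, against 19.5, 19.2 and 27.3 with vehicle. The highest treated library of SPC25 stayed far under the lowest vehicle library in both lines. It fell to 27.8% of the vehicle mean in SW48 (-1.72 ± 0.17 on the log2 scale, adjusted p = 0.000109) and to 30.9% in 23132/87 (-1.55 ± 0.16, adjusted p = 6.23e-05). SPC24 was at 4.66, 2.75 and 3.81 with myricone C, against 12.4, 12.1 and 11.1 with vehicle in SW48. SPC24 values in 23132/87 were 3.27, 3.51 and 2.78 with myricone C, against 8.15, 9.12 and 7.89 with vehicle, again with no overlap. The SPC24 change was -1.46 ± 0.16 in SW48 and -1.17 ± 0.13 in 23132/87. NUF2 was at 6.94, 5.38 and 9.10 with myricone C, against 12.1, 18.3 and 13.5 with vehicle in SW48. NUF2 values in 23132/87 were 30.0, 25.0 and 24.7 with myricone C, against 40.1, 37.6 and 48.3 with vehicle, apart in both lines. NUF2 changed by -0.95 ± 0.19 in SW48 and -0.64 ± 0.12 in 23132/87.

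NDC80 itself (chromosome 18, 2571511 to 2616635, GRCh38) fell in both lines. NDC80 was at 12.9, 14.1 and 14.3 with myricone C, against 27.2, 30.0 and 27.2 with vehicle in SW48. NDC80 values in 23132/87 were 17.8, 18.1 and 15.3 with myricone C, against 23.6, 20.6 and 26.0 with vehicle. All treated libraries lay under the vehicle libraries, by a wide margin in SW48 and a narrow one in 23132/87. The change was -0.98 ± 0.12 (SE, adjusted p = 0.000270) in SW48 and -0.43 ± 0.12 (adjusted p = 0.0145) in 23132/87, where the call was lost without myricone C replicate 3 (-0.36). Within a library, the ratio of SPC25 to NDC80 signal was 0.633, 0.351 and 0.452 with myricone C, against 0.790, 0.746 and 0.974 with vehicle in SW48. The same ratio in 23132/87 was 0.327, 0.363 and 0.522 with myricone C, against 0.826, 0.934 and 1.05 with vehicle. It was lower in all 6 treated libraries than in any vehicle library of the same line. This and the other ratios below were chosen after the values were seen and are given without a test.

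The MIS12 complex links the inner kinetochore to NDC80 and KNL1, and its 4 genes differed from one another. DSN1 was at 11.9, 8.24 and 13.2 with myricone C, against 19.5, 20.9 and 20.7 with vehicle in SW48. DSN1 values in 23132/87 were 19.3, 10.9 and 12.4 with myricone C, against 28.0, 27.7 and 31.8 with vehicle, apart in both lines although replicate 1 of the treated 23132/87 libraries lay above its partners. DSN1 changed by -0.84 ± 0.16 (SE) in SW48 and -1.02 ± 0.18 in 23132/87. PMF1 was at 18.0, 16.2 and 20.3 with myricone C, against 30.9, 33.0 and 26.9 with vehicle in SW48. PMF1 values in 23132/87 were 21.6, 25.3 and 24.3 with myricone C, against 29.1, 29.4 and 28.5 with vehicle, apart in both lines but by less in 23132/87. PMF1 changed by -0.70 ± 0.13 in SW48 (adjusted p = 0.00256) and -0.28 ± 0.10 in 23132/87 (adjusted p = 0.0392). The 23132/87 call of PMF1 was lost without myricone C replicate 1 (-0.22), myricone C replicate 2 (-0.33), myricone C replicate 3 (-0.30), vehicle replicate 1 (-0.28), vehicle replicate 2 (-0.27) or vehicle replicate 3 (-0.29), and after quantile normalization (-0.25), without the mean-variance trend (-0.28), with all 12 libraries in 1 fit (-0.28) or with a replicate block (-0.28). A readthrough gene, PMF1-BGLAP, shares 23.29% of the exonic bases of PMF1 on the same strand, so the level of PMF1 is uncertain.

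NSL1 was at 9.85, 6.25 and 7.33 with myricone C, against 11.5, 12.3 and 12.7 with vehicle in SW48, where the groups were apart. NSL1 values in 23132/87 were 11.1, 10.2 and 12.7 with myricone C, against 13.2, 13.6 and 12.6 with vehicle, where they overlapped. It was called in SW48 at -0.60 ± 0.16 (SE, adjusted p = 0.0169) and not in 23132/87 at -0.20 ± 0.12 (adjusted p = 0.180, 95% interval -0.46 to 0.06). The SW48 call of NSL1 was lost without myricone C replicate 2 (-0.46), myricone C replicate 3 (-0.57) or vehicle replicate 3 (-0.57). MIS12 was at 10.2, 10.9 and 10.3 with myricone C, against 8.49, 10.8 and 9.70 with vehicle in SW48. MIS12 values in 23132/87 were 22.7, 17.9 and 14.7 with myricone C, against 12.4, 13.0 and 15.9 with vehicle. Treated and vehicle libraries of MIS12 overlapped in both lines, and its estimates were the only positive ones of the outer kinetochore. They were 0.11 ± 0.13 (adjusted p = 0.573, 95% interval -0.18 to 0.40) in SW48 and 0.38 ± 0.16 (adjusted p = 0.0726, 95% interval 0.03 to 0.74) in 23132/87. In 23132/87 MIS12 passed the threshold as higher without myricone C replicate 3 (0.53) or vehicle replicate 3 (0.48), and with all 12 libraries in 1 fit (0.38).

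KNL1 is the scaffold on which checkpoint kinases assemble, and ZWINT binds KNL1 and helps to recruit the corona. ZWINT (chromosome 10, 56357228 to 56361275, GRCh38) had the largest estimated fall of all members in 23132/87. ZWINT was at 24.1, 13.7 and 15.5 with myricone C, against 50.5, 47.9 and 54.3 with vehicle in SW48. ZWINT values in 23132/87 were 24.8, 23.4 and 28.8 with myricone C, against 113, 103 and 109 with vehicle. Its treated libraries lay under the vehicle libraries by more than the whole range of either group in both lines. ZWINT averaged 25.7 ± 2.80 with myricone C and 108 ± 5.09 with vehicle in 23132/87 (SD, n = 3), a change of -2.04 ± 0.10 on the log2 scale (SE, adjusted p = 1.82e-06), and 17.7 ± 5.57 with myricone C and 50.9 ± 3.18 with vehicle in SW48, a change of -1.51 ± 0.18 (adjusted p = 0.000263). KNL1 was at 6.52, 5.58 and 4.28 with myricone C, against 8.51, 10.7 and 8.28 with vehicle in SW48. KNL1 values in 23132/87 were 5.67, 4.74 and 4.64 with myricone C, against 6.76, 7.38 and 10.3 with vehicle, apart in both lines, with changes of -0.66 ± 0.17 in SW48 and -0.59 ± 0.16 in 23132/87. The ratio of ZWINT to MIS12 signal was 2.36, 1.26 and 1.51 with myricone C, against 5.95, 4.46 and 5.60 with vehicle in SW48. For 23132/87 this ratio was 1.10, 1.31 and 1.96 with myricone C, against 9.17, 7.93 and 6.84 with vehicle, so every treated library was below every vehicle library in both lines.

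The corona holds CENPE, a kinesin that carries chromosomes to the spindle equator, CENPF, a large coiled-coil protein, and the ROD-ZW10-ZWILCH complex, which recruits dynein and checkpoint proteins. CENPE, CENPF and ZWILCH fell in both lines, and ZW10 was called in neither. CENPF was at 16.4, 11.1 and 9.57 with myricone C, against 25.2, 35.1 and 20.6 with vehicle in SW48. CENPF values in 23132/87 were 14.1, 13.3 and 11.5 with myricone C, against 19.1, 20.3 and 25.1 with vehicle. The SW48 vehicle libraries of CENPF varied most, yet the lowest exceeded the highest treated library. CENPF changed by -1.07 ± 0.21 (SE, adjusted p = 0.00381) in SW48 and -0.68 ± 0.13 (adjusted p = 0.00211) in 23132/87. CENPE was at 5.86, 4.61 and 3.80 with myricone C, against 8.68, 13.0 and 7.68 with vehicle in SW48. CENPE values in 23132/87 were 8.85, 7.67 and 6.47 with myricone C, against 11.3, 11.4 and 15.3 with vehicle, apart in both lines, with changes of -0.89 ± 0.20 in SW48 and -0.65 ± 0.15 in 23132/87. ZWILCH was at 10.4, 11.5 and 9.41 with myricone C, against 13.7, 12.9 and 18.3 with vehicle in SW48. ZWILCH values in 23132/87 were 17.7, 13.3 and 14.8 with myricone C, against 26.5, 26.5 and 26.2 with vehicle, with the groups apart in both lines and further apart in 23132/87. It changed by -0.47 ± 0.15 in SW48 (adjusted p = 0.0401) and -0.76 ± 0.12 in 23132/87 (adjusted p = 0.000593). The SW48 call of ZWILCH was lost without myricone C replicate 1 (-0.47), myricone C replicate 2 (-0.53), myricone C replicate 3 (-0.40), vehicle replicate 1 (-0.52) or vehicle replicate 3 (-0.32), and after quantile normalization (-0.42), after median-centred scaling (-0.38) or with a replicate block (-0.47).

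ZW10 also acts in membrane traffic in interphase. ZW10 was at 15.3, 17.2 and 17.5 with myricone C, against 14.3, 15.3 and 17.8 with vehicle in SW48. ZW10 values in 23132/87 were 23.1, 15.6 and 14.7 with myricone C, against 18.0, 18.7 and 20.9 with vehicle, where replicate 1 of the treated libraries lay above all vehicle libraries and its partners below them. The ZW10 estimate was 0.08 ± 0.13 (SE, adjusted p = 0.692, 95% interval -0.21 to 0.36) in SW48 and -0.13 ± 0.16 (adjusted p = 0.534, 95% interval -0.48 to 0.23) in 23132/87. It passed the threshold as lower in 23132/87 without myricone C replicate 1 (-0.32).

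Shugoshins (SGO1 and SGO2) protect centromeric cohesin until anaphase, and separase (ESPL1) then cuts the cohesin ring. All 3 genes fell in both lines. ESPL1 was at 6.54, 3.97 and 5.76 with myricone C, against 9.92, 11.7 and 7.82 with vehicle in SW48. ESPL1 values in 23132/87 were 6.32, 6.26 and 5.75 with myricone C, against 12.8, 14.4 and 13.3 with vehicle, with treated libraries under vehicle libraries in both lines. The ESPL1 change was -0.76 ± 0.19 (SE, adjusted p = 0.0116) in SW48 and -1.03 ± 0.11 (adjusted p = 8.72e-05) in 23132/87. SGO2 was at 5.80, 5.17 and 3.95 with myricone C, against 8.70, 12.4 and 10.7 with vehicle in SW48. SGO2 values in 23132/87 were 6.76, 5.57 and 4.48 with myricone C, against 7.98, 8.51 and 10.2 with vehicle, apart in both lines, with changes of -0.96 ± 0.17 in SW48 (adjusted p = 0.00196) and -0.59 ± 0.16 in 23132/87 (adjusted p = 0.0111). SGO1 was at 3.23, 3.86 and 2.24 with myricone C, against 4.11, 5.01 and 6.09 with vehicle in SW48. SGO1 values in 23132/87 were 5.88, 5.20 and 6.79 with myricone C, against 7.61, 8.53 and 8.34 with vehicle, apart by small gaps in both lines. SGO1 changed by -0.57 ± 0.19 in SW48 (adjusted p = 0.0395) and -0.40 ± 0.13 in 23132/87 (adjusted p = 0.0272). The SW48 call of SGO1 was lost without myricone C replicate 3 (-0.41), vehicle replicate 2 (-0.57) or vehicle replicate 3 (-0.45), and after quantile normalization (-0.51), after median-centred scaling (-0.49) or with a replicate block (-0.57). In 23132/87 the SGO1 call was lost without myricone C replicate 1 (-0.40), myricone C replicate 2 (-0.32), vehicle replicate 2 (-0.37) or vehicle replicate 3 (-0.39), and with all 12 libraries in 1 fit (-0.40) or with a replicate block (-0.40).

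All 8 condensin genes fell in both lines. The median log2 change was -0.92 in SW48 and -1.0 in 23132/87, and all 8 genes had their 3 treated libraries under their 3 vehicle libraries in each line. Adjusted p-values ran from 0.000211 to 0.00358 in SW48 and from 4.83e-06 to 0.00380 in 23132/87 (limma). All 8 calls held in both lines under every alternative in which the gene was tested. Condensin I and condensin II share the SMC2-SMC4 pair and differ in the closing kleisin subunit (NCAPH or NCAPH2) and the HEAT-repeat subunits (NCAPD2 and NCAPG, or NCAPD3 and NCAPG2). SMC2 was at 7.02, 4.82 and 4.21 with myricone C, against 10.9, 12.2 and 10.8 with vehicle in SW48. SMC2 values in 23132/87 were 11.9, 10.4 and 10.3 with myricone C, against 22.2, 24.3 and 28.1 with vehicle, with a change of -0.98 ± 0.17 (SE) in SW48 and -1.12 ± 0.12 in 23132/87. The partner SMC4 had a higher signal than SMC2 in every library. SMC4 was at 27.6, 26.7 and 23.6 with myricone C, against 41.0, 41.2 and 44.2 with vehicle in SW48. SMC4 values in 23132/87 were 32.6, 26.8 and 23.5 with myricone C, against 46.1, 48.8 and 52.8 with vehicle, with a change of -0.68 ± 0.11 in SW48 and -0.82 ± 0.13 in 23132/87.

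Of condensin I, the kleisin NCAPH had the largest estimate in both lines. NCAPH was at 14.0, 10.0 and 13.4 with myricone C, against 31.4, 29.8 and 29.9 with vehicle in SW48. NCAPH values in 23132/87 were 9.15, 9.48 and 8.98 with myricone C, against 27.8, 27.8 and 27.7 with vehicle. The replicates of each 23132/87 group lay close together, and the treated mean was 33.1% of vehicle there and 41.1% in SW48. Its change was -1.23 ± 0.14 (SE, adjusted p = 0.000211) in SW48 and -1.50 ± 0.10 (adjusted p = 4.83e-06) in 23132/87. NCAPD2 was at 33.4, 23.5 and 30.3 with myricone C, against 56.0, 64.5 and 50.2 with vehicle in SW48. NCAPD2 values in 23132/87 were 26.5, 25.7 and 24.2 with myricone C, against 50.1, 48.7 and 45.9 with vehicle, with a treated mean at 51.1% of vehicle in SW48 and 52.8% in 23132/87. NCAPG was at 8.13, 6.63 and 6.43 with myricone C, against 13.8, 16.4 and 17.3 with vehicle in SW48. NCAPG values in 23132/87 were 12.2, 9.01 and 9.05 with myricone C, against 16.7, 18.7 and 20.2 with vehicle, with a change of -1.06 ± 0.14 in SW48 and -0.82 ± 0.14 in 23132/87. Exons of LCORL on the opposite strand cover 33.14% of the exonic bases of NCAPG, the widest such overlap among the members.

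Of condensin II, NCAPD3 (chromosome 11, 134150119 to 134225454, GRCh38) fell further in 23132/87 than in SW48. NCAPD3 was at 18.3, 13.0 and 16.1 with myricone C, against 26.1, 26.6 and 25.2 with vehicle in SW48. NCAPD3 values in 23132/87 were 9.42, 9.58 and 10.4 with myricone C, against 28.2, 27.8 and 27.4 with vehicle. The vehicle libraries of both lines lay at similar signals, while the treated libraries of SW48 all lay above those of 23132/87, with the caution that each line has its own table. NCAPD3 fell to 60.9% of vehicle in SW48 (-0.69 ± 0.14, adjusted p = 0.00358) and to 35.2% in 23132/87 (-1.42 ± 0.10, adjusted p = 6.25e-06). NCAPG2 was at 24.4, 19.3 and 20.7 with myricone C, against 41.3, 38.0 and 42.4 with vehicle in SW48. NCAPG2 values in 23132/87 were 12.6, 12.9 and 12.2 with myricone C, against 28.7, 25.8 and 29.7 with vehicle, with a change of -0.89 ± 0.12 in SW48 and -1.10 ± 0.10 in 23132/87. NCAPH2, the condensin II kleisin, was at 17.5, 14.9 and 16.3 with myricone C, against 30.0, 28.4 and 27.1 with vehicle in SW48. NCAPH2 values in 23132/87 were 15.1, 14.7 and 13.7 with myricone C, against 21.7, 22.7 and 19.0 with vehicle, with a change of -0.78 ± 0.12 in SW48 and -0.51 ± 0.11 in 23132/87. The ratio of NCAPH to NCAPH2 was 0.801, 0.672 and 0.819 with myricone C, against 1.04, 1.05 and 1.10 with vehicle in SW48. In 23132/87 the kleisin ratio was 0.607, 0.645 and 0.656 with myricone C, against 1.28, 1.23 and 1.46 with vehicle, lower in all treated libraries of both lines. The ratio of NCAPD2 to NCAPD3 was 1.82, 1.81 and 1.88 with myricone C, against 2.14, 2.42 and 1.99 with vehicle in SW48. That ratio in 23132/87 was 2.81, 2.68 and 2.33 with myricone C, against 1.77, 1.75 and 1.68 with vehicle, so that treated libraries lay below vehicle libraries in SW48 and above them in 23132/87.

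**Figure D3:**
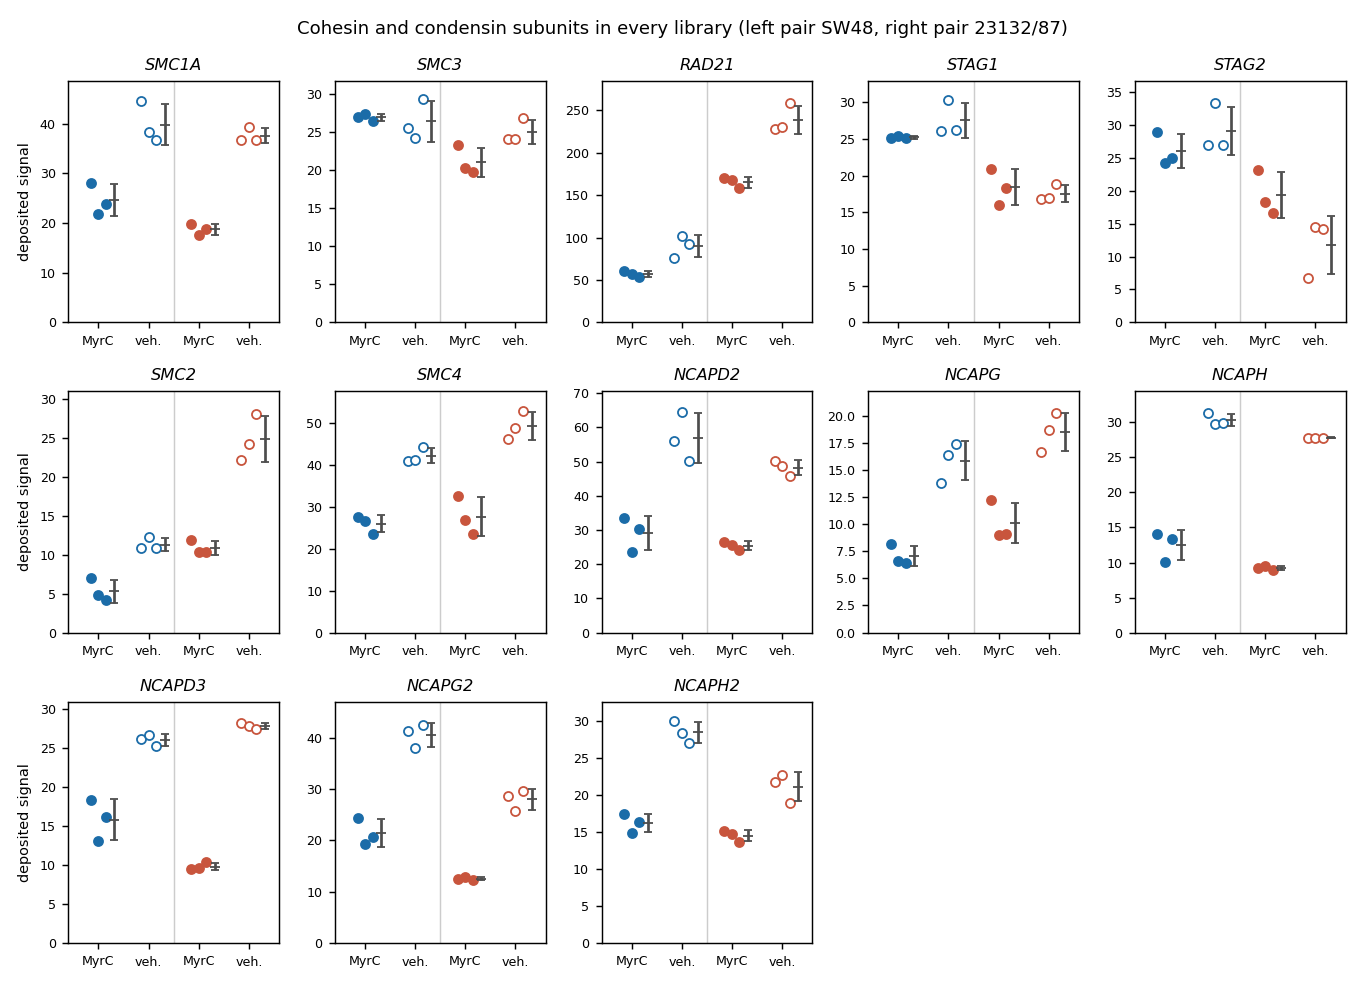
Deposited signal (y axes, from 0) of the 5 cohesin genes (top row) and the 8 condensin genes in each of the 12 libraries; filled circles are myricone C, open circles vehicle, SW48 in blue at left and 23132/87 in red at right, with group mean and SD beside them (n = 3). Condensin genes, SMC1A and RAD21 are lower in every treated library, SMC3 and STAG1 stay near vehicle, and STAG2 in 23132/87 is higher in treated libraries.

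Cohesin genes moved unevenly. SMC1A and RAD21 fell in both lines, STAG2 rose in 23132/87 and was not called in SW48, and SMC3 and STAG1 were called in neither. The complex median was -0.15 in SW48 and -0.24 in 23132/87. Over all genes, 19.2% fell and 10.1% rose in SW48, and 23.2% fell and 23.3% rose in 23132/87. The 1 riser among the 5 cohesin genes in 23132/87 is thus near the share of all genes. The SW48 median of these 5 genes was -0.05 without vehicle replicate 2, -0.22 without myricone C replicate 1, -0.06 after median-centred scaling and -0.07 after quantile normalization, with the same 2 genes called. SMC1A and SMC3 are the paired arms of the ring, RAD21 is the kleisin that closes it and that separase cuts, and STAG1 or STAG2 binds RAD21 as alternative subunits. SMC1A (chromosome X, 53374149 to 53422728, GRCh38) was at 28.1, 21.7 and 23.8 with myricone C, against 44.5, 38.4 and 36.6 with vehicle in SW48. SMC1A values in 23132/87 were 19.8, 17.5 and 18.8 with myricone C, against 36.7, 39.3 and 36.7 with vehicle. Treated libraries of SMC1A lay under all vehicle libraries in both lines. It fell to 61.6% of vehicle in SW48 (-0.68 ± 0.13, SE, adjusted p = 0.00335) and to 49.8% in 23132/87 (-0.97 ± 0.10, adjusted p = 4.95e-05). Its partner SMC3 was at 26.9, 27.3 and 26.4 with myricone C, against 25.5, 24.2 and 29.3 with vehicle in SW48. SMC3 values in 23132/87 were 23.2, 20.2 and 19.7 with myricone C, against 24.1, 24.0 and 26.8 with vehicle. The groups of SMC3 overlapped in SW48 and were apart by a small gap in 23132/87. The SMC3 estimate was 0.03 ± 0.12 (adjusted p = 0.861, 95% interval -0.23 to 0.29) in SW48 and -0.24 ± 0.11 (adjusted p = 0.0887, 95% interval -0.48 to -0.00) in 23132/87, where it passed the threshold as lower without myricone C replicate 1 (-0.31). The ratio of SMC1A to SMC3 was 1.04, 0.795 and 0.900 with myricone C, against 1.74, 1.58 and 1.25 with vehicle in SW48. That of 23132/87 was 0.856, 0.868 and 0.957 with myricone C, against 1.53, 1.63 and 1.37 with vehicle. Every treated library had a lower ratio than any vehicle library of its line.

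RAD21 had the highest signal of all members in both lines. RAD21 was at 60.4, 56.6 and 53.6 with myricone C, against 75.9, 101 and 92.8 with vehicle in SW48. RAD21 values in 23132/87 were 169.7, 167 and 158 with myricone C, against 228, 229.8 and 258 with vehicle, with treated libraries under vehicle libraries in both. RAD21 fell to 63.2% of vehicle in SW48 (-0.64 ± 0.13, SE, adjusted p = 0.00353) and to 69.1% in 23132/87 (-0.53 ± 0.09, adjusted p = 0.00150). STAG1 was at 25.1, 25.5 and 25.1 with myricone C, against 26.1, 30.3 and 26.2 with vehicle in SW48. STAG1 values in 23132/87 were 20.9, 16.1 and 18.3 with myricone C, against 16.8, 17.0 and 18.9 with vehicle. In SW48 the treated libraries of STAG1 lay just under the vehicle libraries, and in 23132/87 the groups overlapped. Its estimate was -0.12 ± 0.12 (adjusted p = 0.471, 95% interval -0.37 to 0.13) in SW48 and 0.06 ± 0.12 (adjusted p = 0.704, 95% interval -0.21 to 0.33) in 23132/87. Leaving out vehicle replicate 2 turned the sign of the uncalled SMC3 estimate in SW48 (-0.02), and leaving out myricone C replicate 1 that of STAG1 in 23132/87 (-0.03). Exons of PCCB on the opposite strand cover 21.21% of the exonic bases of STAG1.

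STAG2 (chromosome X, 123960212 to 124422664, GRCh38) was the only member called as higher, and that in 23132/87. STAG2 was at 29.0, 24.2 and 25.1 with myricone C, against 27.0, 33.3 and 27.0 with vehicle in SW48. STAG2 values in 23132/87 were 23.2, 18.3 and 16.6 with myricone C, against 6.69, 14.5 and 14.2 with vehicle. In 23132/87 all treated libraries lay above all vehicle libraries, and vehicle replicate 1 lay far under the other 2 vehicle libraries, while in SW48 the groups overlapped. The change was 0.73 ± 0.25 (SE, adjusted p = 0.0353) in 23132/87 and -0.15 ± 0.13 (adjusted p = 0.418, 95% interval -0.44 to 0.14) in SW48. The 23132/87 call was lost without myricone C replicate 1 (0.60), myricone C replicate 2 (0.76) or vehicle replicate 1 (0.40). The ratio of STAG2 to STAG1 was 1.15, 0.950 and 0.997 with myricone C, against 1.03, 1.10 and 1.03 with vehicle in SW48. It was 1.11, 1.14 and 0.908 with myricone C, against 0.398, 0.853 and 0.750 with vehicle in 23132/87, with treated libraries above vehicle libraries in 23132/87 and overlapping groups in SW48.

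**Figure D4:**
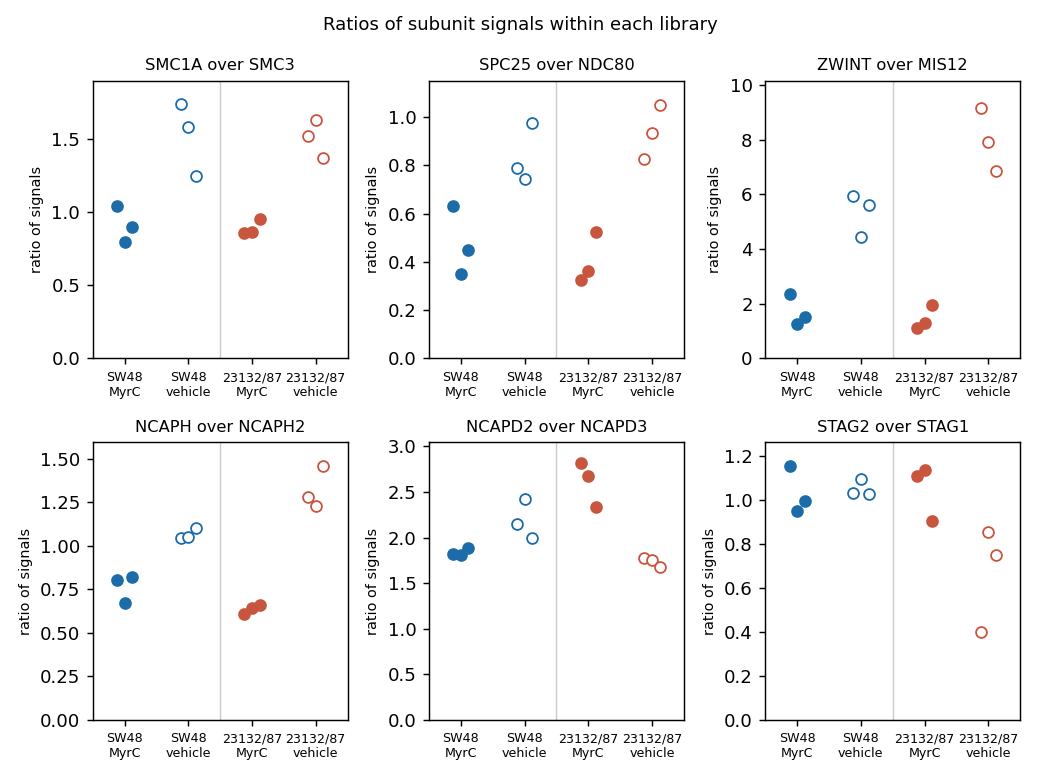
Ratio of the deposited signals of paired subunits within each library (y axes, from 0), with myricone C (filled) left of vehicle (open) for SW48 in blue and 23132/87 in red; each circle is 1 library. SMC1A over SMC3, SPC25 over NDC80, ZWINT over MIS12 and NCAPH over NCAPH2 are lower in every treated library of both lines, and NCAPD2 over NCAPD3 goes opposite ways in the lines.

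Summed over a complex, the signal of the 8 condensin genes was 150.3, 119 and 131 with myricone C, against 251, 257 and 247 with vehicle in SW48. For condensin in 23132/87 the sums were 129, 119 and 112 with myricone C, against 242, 245 and 251 with vehicle. The 5 cohesin genes summed to 169, 155 and 154 with myricone C, against 199, 228 and 212 with vehicle in SW48. Cohesin sums in 23132/87 were 257, 239 and 231 with myricone C, against 312, 325 and 355 with vehicle. The sums were lower in every treated library for both complexes, with a wider gap for condensin. RAD21 makes up most of the cohesin sum in 23132/87. Outer kinetochore sums were 113, 88.0 and 104 with myricone C, against 203, 218 and 211 with vehicle in SW48, and inner kinetochore sums were 109.6, 95.2 and 101 with myricone C, against 178, 187 and 189 with vehicle there. The 23132/87 outer kinetochore sums were 162, 146 and 148 with myricone C, against 294, 281 and 317 with vehicle, and its inner kinetochore sums were 107, 106 and 101 with myricone C, against 195, 186 and 199.9 with vehicle. SW48 myricone C replicate 1 was the highest of its 3 treated libraries in the sums of all 6 groups of members.

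The lines were compared by the line-by-treatment term, the SW48 change minus the 23132/87 change, estimated in 1 model of the 12 libraries for the genes that both tables hold. Of the 43 members, 2 differed between the lines, against 12.7% of all 10264 genes (5.33% with a positive and 7.39% with a negative difference), and the median difference was -0.05 over members and -0.09 over all genes. NCAPD3 had a difference of 0.72 ± 0.16 (SE, adjusted p = 0.0104), a smaller fall in SW48 than in 23132/87, and this call held under all 20 alternatives. NDC80 had a difference of -0.55 ± 0.16 (adjusted p = 0.0329), a larger fall in SW48. The NDC80 difference was lost without SW48 myricone C replicate 1 (-0.51), SW48 myricone C replicate 2 (-0.57), SW48 vehicle replicate 2 (-0.50), SW48 vehicle replicate 3 (-0.57), 23132/87 myricone C replicate 1 (-0.52), 23132/87 myricone C replicate 2 (-0.51), 23132/87 vehicle replicate 1 (-0.56) or 23132/87 vehicle replicate 2 (-0.46), and after quantile normalization (-0.50), after median-centred scaling (-0.46) or with a replicate block (-0.55). The STAG2 difference, -0.88 ± 0.30 (adjusted p = 0.0717), did not pass, but did without 23132/87 vehicle replicate 2 (-1.05) or 23132/87 vehicle replicate 3 (-1.04). NSL1, at -0.39 ± 0.20 (adjusted p = 0.200), passed without SW48 myricone C replicate 1 (-0.56). PMF1 was at -0.42 ± 0.16 (adjusted p = 0.0907), ZWINT at 0.53 ± 0.22 (adjusted p = 0.128) and CENPA at -0.47 ± 0.20 (adjusted p = 0.131), none of which passed.

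Across the 43 members, the changes in the 2 lines had a Pearson correlation of 0.772 and a Spearman correlation of 0.731. Over all 10264 genes in both tables these were 0.634 and 0.607. Both are descriptions across genes, which are not independent replicates. Levels were not tested between lines, since each line has its own table. Set side by side, vehicle means were 14.6 in SW48 and 42.0 in 23132/87 for NUF2, 50.9 and 108 in the same order for ZWINT, and 90.0 and 239 for RAD21.

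**Figure D5:**
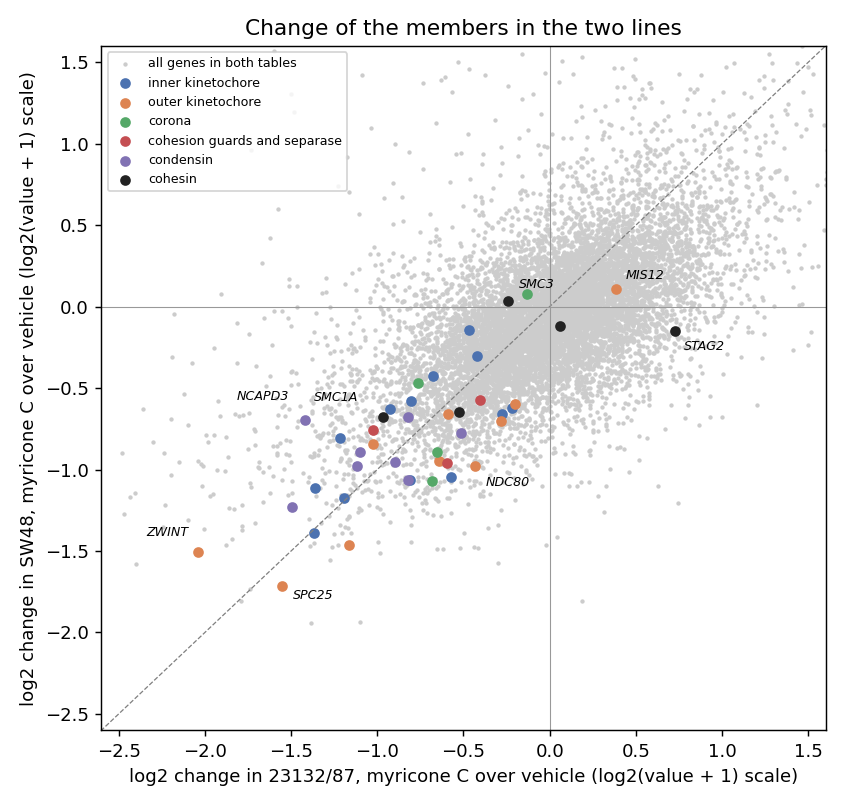
Log2 change with myricone C (log2(value + 1) scale) in SW48 (y axis) against 23132/87 (x axis) for the 43 members, coloured by group, over all genes in both tables in grey; genes outside the axis limits are not drawn and the dashed line marks equal change. Most members lie at lower left, with NCAPD3 above the dashed line and NDC80 and STAG2 below it.

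Partner genes of the same machinery, outside the 44, were grouped by function, and for each group the members of largest change past the threshold are named. Over all genes, 19.2% fell in SW48 and 23.2% in 23132/87. These lists, like the members, were chosen with earlier results of these data known, so their counts are descriptions. The chromosomal passenger complex, which corrects faulty attachments, fell in 4 of 4 cases in each line, with BIRC5 at -1.45 ± 0.13 (SE) in SW48 and -1.37 ± 0.12 in 23132/87, CDCA8 at -1.11 ± 0.15 in SW48 and INCENP at -1.17 ± 0.11 in 23132/87. Spindle checkpoint genes fell in 5 of 6 cases in each line, with the kinase BUB1 at -1.11 ± 0.13 in SW48, MAD2L1 at -0.97 ± 0.10 in 23132/87, and BUB1B at -1.06 ± 0.12 in SW48 and -0.86 ± 0.12 in 23132/87. Genes for loading of CENPA fell in 6 of 6 cases in SW48 and 5 of 6 in 23132/87. They included the chaperone HJURP at -0.89 ± 0.13 and MIS18A at -0.81 ± 0.14 in SW48, and OIP5 at -1.06 ± 0.14 and RBBP7 at -0.93 ± 0.10 in 23132/87. The SKA complex and corona partners fell in 6 of 7 cases in each line. SKA2, a subunit of the microtubule-binding SKA complex, was at -1.28 ± 0.15 in SW48 and -1.16 ± 0.17 in 23132/87, KIF18A at -0.79 ± 0.17 in SW48, and KNTC1, the ROD subunit that partners ZW10 and ZWILCH, at -0.98 ± 0.12 in 23132/87. Other centromere genes fell in 3 of 4 cases in each line. CENPX, a partner of the CENPT-CENPW pair, was at -1.31 ± 0.14 in SW48 and -2.10 ± 0.15 in 23132/87, and ITGB3BP at -1.12 ± 0.14 and -1.06 ± 0.15 in the same order. By limma's line-by-treatment term, the CENPX difference between lines, 0.79 ± 0.22, passed (adjusted p = 0.0286), with a smaller fall in SW48. Condensin partners fell in 3 of 3 cases in each line, with topoisomerase TOP2A at -1.24 ± 0.15 in SW48, the proliferation marker MKI67 at -1.33 ± 0.11 in 23132/87, and the kinesin KIF4A at -1.23 ± 0.14 in SW48 and -1.0 ± 0.11 in 23132/87.

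Of 10 cohesin regulators, 4 fell and none rose in SW48, where 19.2% of all genes fell. In 23132/87, 4 fell and 2 rose, beside 23.2% and 23.3% of all genes, so the share that rose is near that of all genes. The list median was -0.22 in SW48 and -0.13 in 23132/87. The separase inhibitor PTTG1 fell in both lines, at -1.34 ± 0.15 (SE) in SW48 and -0.80 ± 0.10 in 23132/87. The acetyltransferase ESCO2, which establishes cohesion during replication, was at -1.16 ± 0.22 in SW48 and -1.52 ± 0.13 in 23132/87. CDCA5, the cohesion factor sororin, was at -1.07 ± 0.14 in SW48 and -0.98 ± 0.12 in 23132/87. HDAC8 fell in SW48 at -0.73 ± 0.14 and was not called in 23132/87 at -0.29 ± 0.14. The 2 that rose in 23132/87, named after their values were seen, were ESCO1, a related acetyltransferase that acts outside replication as well, at 0.91 ± 0.18, and the loader subunit MAU2 at 0.45 ± 0.13. In SW48 ESCO1 was at 0.37 ± 0.18 (adjusted p = 0.146) and MAU2 at 0.08 ± 0.14 (adjusted p = 0.706). Of the release factors, PDS5B fell in 23132/87 at -0.62 ± 0.15 (adjusted p = 0.00683) and was not called in SW48 at -0.41 ± 0.15 (adjusted p = 0.0538), with treated libraries under vehicle libraries in both lines. The loader NIPBL and the release factors WAPL and PDS5A were called in neither line. Their estimates lay between -0.02 and 0.16 in SW48 and between 0.04 and 0.37 in 23132/87. The SMC5/6 complex, the third ring of this family and one that acts in DNA repair, had 1 of 6 genes lower in SW48 and none called in 23132/87. The SW48 gene was NSMCE4A at -0.53 ± 0.13 (adjusted p = 0.00933), and the medians were -0.19 in SW48 and 0.08 in 23132/87. At an unadjusted p under 0.05 there was 1 of the 6 in 23132/87, NSMCE2, beside 5971 of all 11070 genes. NSMCE2 was at -0.44 ± 0.15 (adjusted p = 0.0522) in SW48 and 0.32 ± 0.12 (adjusted p = 0.0510) in 23132/87, and its difference between lines, -0.75 ± 0.20, passed (adjusted p = 0.0232).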

How the data were processed

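mRNA of SW48 and 23132/87 cells was sequenced from libraries of a stranded mRNA kit (TruSeq), per the labels' protocols, in 3 libraries for each of 4 groups. The submitters' processing notes name FastQC, a read quality tool, STAR, an aligner, and the build GRCh38. For tool versions, counting tool, annotation, strand setting and normalization the entry is: not given in the sources used here. Expression signal per gene was deposited as 1 table for each line by the authors. Totals were lower in every treated library than in any vehicle library of the same line. The unit of the signal is not stated and depth is unknown, so no counting interval is given. No value under 1 is listed in any library of a line, and low values that could show steps of whole reads are therefore not at hand.

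From these values log2(value + 1) was computed, a minimum mean of 1 was set (all genes passed), and limma 3.58.1 with a mean-variance trend (R 4.3.3) was fitted within each line on its 6 libraries. Lines were compared through an interaction term of line and treatment in 1 model of the 12 libraries, limited to genes that both tables hold. P-values were adjusted by Benjamini-Hochberg over all genes tested, with a threshold of 0.05, and are two-sided. Fold changes on the log2(value + 1) scale understate the change of low genes. The script was tested on simulated data with independent noise and changes set in a small part of the genes. That setting is unlike these data, where many genes changed, and its outcome is not reported here. The SW48 myricone C columns carry other replicate numbers in the table than in the labels, and the labels' numbers are used. Every listed member is described in the order of the complexes, and of other pathway lists the 2 genes of largest change past the threshold are named. The members and lists were chosen with earlier results of these data known. Gene spans and overlaps come from GENCODE 29 and promoters from RefSeq (GRCh38.p14). Promoters of CENPH, CENPL, CENPM, KNL1, NCAPH2 and RAD21 were not used here. Alternatives were 2 other scalings, pseudocounts of 0.1 and 5, no filter and a filter of at least 10 in 3 libraries, no trend, all 12 libraries in 1 fit, a replicate block, and leaving out each library in turn.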

Additional observations from a re-analysis of the deposited data

Results flagged for a closer look

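The response to myricone C differed between the lines for 2 members, by limma's line-by-treatment term over 12 libraries, where 12.7% of all 10264 genes differed. NCAPD3, a condensin II subunit, had a SW48 change minus 23132/87 change of 0.72 ± 0.16 (SE, adjusted p = 0.0104), with a log2 change of -0.69 in SW48 and -1.42 in 23132/87, lower in 3 of 3 treated libraries in each line. Its call held under all 20 alternatives. NDC80, a subunit at the microtubule end of its complex, had a difference of -0.55 ± 0.16 (adjusted p = 0.0329), with a log2 change of -0.98 in SW48 and -0.43 in 23132/87, again lower in 3 of 3 treated libraries in each line. The NDC80 call was lost under 11 of the 20 alternatives, both rescalings and the replicate block among them. Groups of 3 libraries are too small for a test of single outlying libraries.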

How the results depend on the processing

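Counts of members called moved little. Against 36 in SW48 and 36 in 23132/87, the alternatives gave 27 to 36 and 29 to 36, the lowest with the filter of at least 10 in 3 libraries, which tests fewer members. Leaving out 1 library gave 30 to 35 in SW48 and 32 to 34 in 23132/87, and 29 to 32 for members lower in both lines, against 33. Of the 36 calls in each line, 30 held in every alternative in which the gene was tested, and no call changed sign. The count of members that differed between lines was 2. It was 1 after quantile normalization, 1 after median-centred scaling, 1 with the replicate block, and 1 to 3 when 1 library was left out, and the cause was not tested. Over all genes, quantile normalization left 1765 of 3280 SW48 calls as lower, against 2213 of 3383. Between lines, 759 of 1306 calls over all genes were negative, against 519 of 1273 after median-centred scaling and 605 of 1292 after quantile normalization. Without SW48 myricone C replicate 2, calls over all genes in SW48 numbered 2199. Calls between lines over all genes numbered 1306, against 770 with the replicate block and 830 without SW48 vehicle replicate 2.

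Libraries with the same replicate number in the labels showed no common deviation. The correlation of their deviations from the group means was -0.07, -0.17 and -0.14 in SW48 and -0.24, 0.11 and -0.27 in 23132/87. By the deposited column numbers, SW48 myricone C replicate 1 would pair with vehicle replicate 2 (0.15). Replicate 2 would pair with vehicle replicate 3 (0.27). Deviations from means of 3 libraries cannot show whether cultures or batches were shared. With the replicate block, 33 members were called in SW48, 34 in 23132/87 and 29 as lower in both. Unknown depth and the absence of genes under a value of 1 limit what can be said of low genes, and CENPP has no expression value here. The 23132/87 median of the 3 cohesion guard and separase genes, -0.59, was -0.39 with a pseudocount of 5. The filter of at least 10 left only 1 of these genes in 23132/87, ESPL1, at -1.03, so no group median is given for it.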
